A study of Mus musculus with 6 samples.

Results

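Genes with known functions in Müller glia, 10 in number, were followed between *Nrl-/-* and WT retina, namely *Glul*, *Aqp4*, *Car2*, *Car14*, *Apoe*, *Clu*, *Abca8a*, *Sparc*, *Timp3* and *Cd9*. They were chosen by name, with earlier results of these data known. Every transcript with one of these symbols in the mRNA table was taken. All 10 were listed, each with 1 transcript, among 12145 genes and 15142 transcripts. Whole retinas were taken at postnatal day 21 from 3 *Nrl-/-* mice, kept on a C57Bl/6J background, and from 3 WT mice, given as C57BL/6 in the sample labels. *Nrl-/-* mice carry a germline loss of the leucine zipper factor without which photoreceptors do not become rods, and cone-like cells take the place of rods in their retinas. Each library came from 1 biologic replicate, and the labels name no treatment for either group.

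Müller glia are the main glia of the retina and span its whole thickness. They take up glutamate and turn it into glutamine, move water and potassium, buffer acid and carbon dioxide, supply lipids and secrete matrix proteins. Several of the 10 genes are also active in other cells, among them astrocytes, vessels, microglia and pigment epithelium. In whole retina a change in the number of cells of a type and a change in the RNA of each cell cannot be told apart.

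The labels were checked first. *Nrl* (NM_001136074) had an FPKM (fragments per kilobase of exon, scaled to the mapped reads of the library) of 0.919, 0.879 and 0.959 in *Nrl-/-* retina, against 552, 583 and 500.5 in WT retina. The 7 rod markers were all lower and the 7 cone markers all higher in *Nrl-/-* retina, with a summed FPKM of 52.8 to 57.8 in *Nrl-/-* and 5231 to 5836 in WT retina for rods, and of 4974 to 5101 in *Nrl-/-* and 302 to 361 in WT retina for cones. *Xist*, the RNA that coats the silenced X chromosome, had an FPKM of 186 in WT replicate 2 and of at most 0.0497 in the other 5 libraries, while the labels give no sex. Of 24 other genes known in Müller glia all 24 were listed, and their summed FPKM was 803 to 816 in *Nrl-/-* and 713 to 740.2 in WT retina. Such a sum follows its most abundant genes, and the 24 moved in both directions, as given below. The deposited tables hold no read counts, so the depth behind an FPKM is not known from them. The study itself reports reads and alignments for each library.

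Promoter windows of the 5 members that rose and had one are shown beside that of *Glul*, the most abundant member, which was not called. RefSeq gave windows for 7 of the 10 genes, and *Aqp4*, *Car2* and *Clu* had no entry. Each window holds 250 bases before the start in GRCm38.p6, and bases inside the gene as annotated in NCBIM37 (mm9) were left off. The windows matched NCBIM37 once each, at chr11:109957293-109957501 for *Abca8a*, chr7:20284538-20284787 for *Apoe*, chr3:95708615-95708858 for *Car14*, chr11:55233583-55233832 for *Sparc* and chr6:125444810-125445028 for *Cd9*, all on the minus strand, and at chr1:155746809-155747058 on the plus strand for *Glul*. Each is written 5′ to 3′ along its gene, and capitals mark motif letters on either strand. They are GGATTA, bound by the photoreceptor factor CRX, and the GC box, which is spelled out with its counts after the sequences.
Abca8a: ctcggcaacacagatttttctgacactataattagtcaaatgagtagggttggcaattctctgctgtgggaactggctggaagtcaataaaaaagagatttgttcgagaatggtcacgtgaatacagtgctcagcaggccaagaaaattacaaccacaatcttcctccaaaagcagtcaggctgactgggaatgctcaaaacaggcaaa
Apoe: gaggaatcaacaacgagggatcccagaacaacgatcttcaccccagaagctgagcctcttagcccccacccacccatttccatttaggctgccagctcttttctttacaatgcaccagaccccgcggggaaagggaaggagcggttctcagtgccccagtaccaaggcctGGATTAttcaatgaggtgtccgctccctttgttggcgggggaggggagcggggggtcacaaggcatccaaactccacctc
Car14: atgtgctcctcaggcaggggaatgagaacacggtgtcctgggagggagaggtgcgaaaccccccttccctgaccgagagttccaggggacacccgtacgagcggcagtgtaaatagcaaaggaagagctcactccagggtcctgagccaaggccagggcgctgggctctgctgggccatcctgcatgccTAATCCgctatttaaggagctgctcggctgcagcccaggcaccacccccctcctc
Cd9: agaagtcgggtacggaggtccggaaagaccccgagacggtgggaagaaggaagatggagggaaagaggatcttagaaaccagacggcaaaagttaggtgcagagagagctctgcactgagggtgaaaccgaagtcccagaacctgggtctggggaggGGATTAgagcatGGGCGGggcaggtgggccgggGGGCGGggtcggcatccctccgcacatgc
Sparc: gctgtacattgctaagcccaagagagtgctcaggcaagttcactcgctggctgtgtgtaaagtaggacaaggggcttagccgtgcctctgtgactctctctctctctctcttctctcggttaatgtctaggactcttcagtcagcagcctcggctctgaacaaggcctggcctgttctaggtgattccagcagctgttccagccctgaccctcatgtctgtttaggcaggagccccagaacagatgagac
Glul: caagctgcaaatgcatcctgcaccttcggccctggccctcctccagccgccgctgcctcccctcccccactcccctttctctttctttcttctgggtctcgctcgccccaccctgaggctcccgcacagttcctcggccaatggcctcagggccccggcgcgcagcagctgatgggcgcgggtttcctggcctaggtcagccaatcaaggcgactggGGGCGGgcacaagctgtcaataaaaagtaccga

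GGATTA occurred in the windows of *Apoe*, *Car14* and *Cd9*, 3 of the 9 member windows, and in 6.25% of all 32851 promoter windows of that length. It lay 80 bases before the start in *Apoe*, 61 in *Car14* and 93 in *Cd9*. The GC box, searched as GGGCGG, was in 3 of the 9 windows, those of *Cd9*, *Glul* and *Timp3*, and in 32.7% of all. A TATA box, searched as TATAAA, was in 1 of the 9, at an internal start of *Apoe*, and in 12.4% of all. The SOX letters AACAAT were in 0 of the 9 and in 9.42% of all. The AP-1 letters TGANTCA were likewise in 0 of the 9, against 6.75% of all. The windows of *Abca8a* and *Sparc* held none of the 5 motifs. A match gives the letters only and is not a measured binding site. The window of *Abca8a* was the richest of the 9 in A and T, with 43.2% G and C against a median of 52.4% over all windows, 57.2% for *Apoe* and 64.8% for *Glul*.

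Of the 10 genes 6 were higher in *Nrl-/-* retina, 0 were lower and 4 were not called, at a Benjamini-Hochberg adjusted p under 0.05 from limma over all 15142 transcripts. *Abca8a*, *Apoe*, *Clu*, *Cd9*, *Sparc* and *Car14* were higher, and *Glul*, *Aqp4*, *Car2* and *Timp3* were not called. Of all transcripts 26.7% were called higher and 10.1% lower. Every *Nrl-/-* library was above every WT library for the 6 called genes, as it was for 34.9% of all transcripts. The median log2 fold change was 0.30 over the 10 genes and 0.08 over all transcripts. It was 0.11 over the transcripts with an FPKM of at least 5. Log2 fold change is the difference in mean log2(FPKM + 1). At an unadjusted p under 0.05 the counts were 7 higher and 0 lower, and the share of all transcripts at that threshold was not computed. Under the 4 other scalings of the libraries, and under an ordinary linear model, 3 of the 10 were called higher, namely *Abca8a*, *Apoe* and *Clu*, and 0 were lower. Of all transcripts 16.2% to 16.9% were called higher under these scalings and 19.4% under the ordinary linear model. The same 3 genes alone were called without WT replicate 1 and without WT replicate 2, where 26.3% and 23.3% of all transcripts were called higher. The higher share of all calls was 72.7% as deposited and 52.0% with median-of-ratios scaling.

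**Figure D1:**
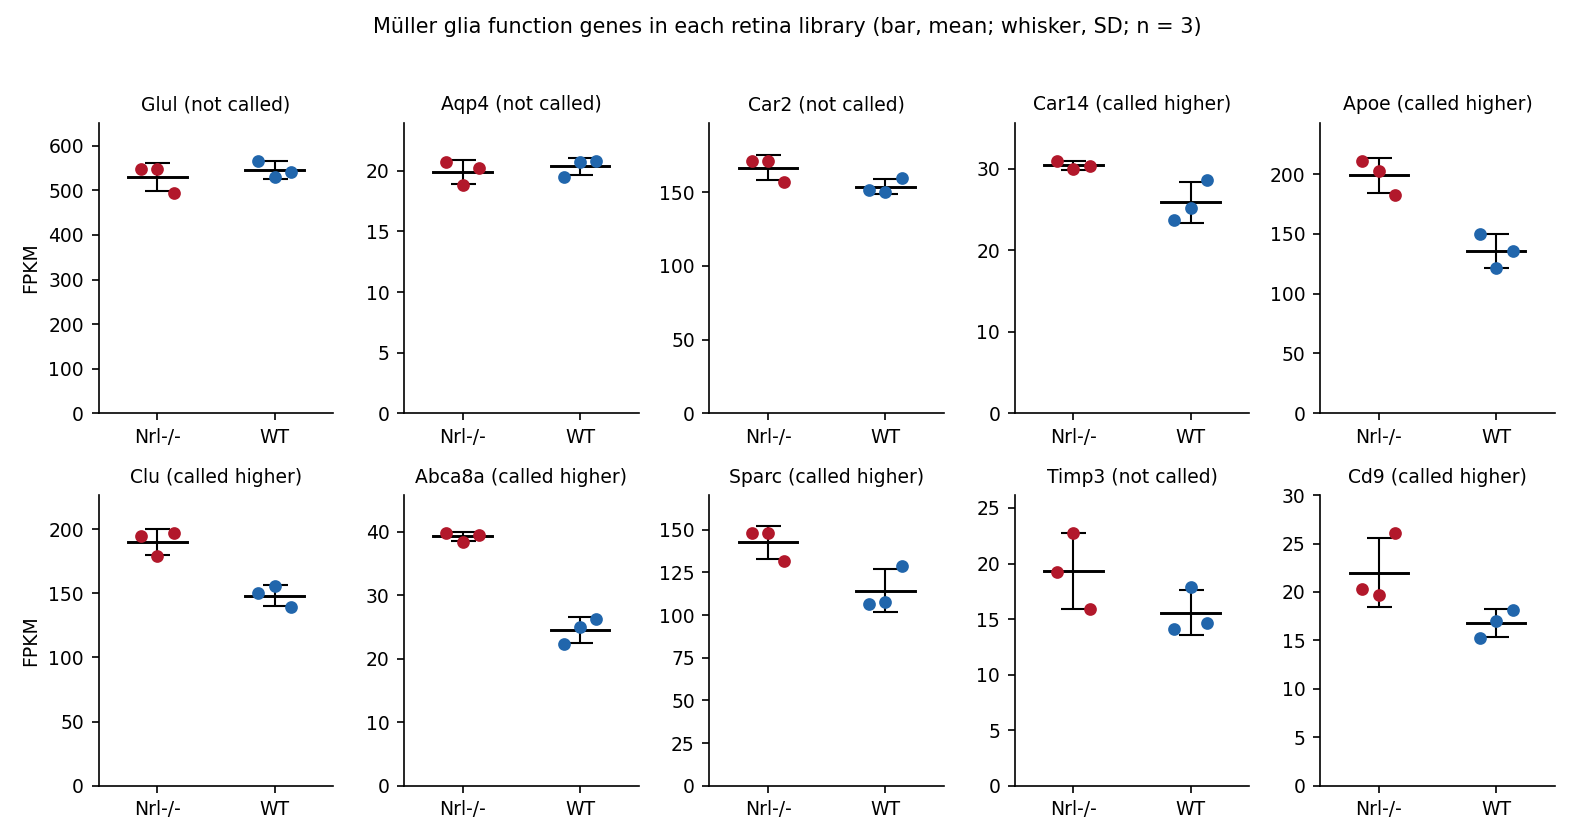
FPKM of each of the 10 genes (vertical axes from 0, a scale of its own in each panel) in the 3 *Nrl-/-* and the 3 WT libraries, with the mean (bar) and SD (whisker). All *Nrl-/-* points lie above all WT points for *Car14*, *Apoe*, *Clu*, *Abca8a*, *Sparc* and *Cd9*, and the groups overlap for the other 4.

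*Glul* encodes glutamine synthetase, which turns glutamate and ammonia into glutamine and in the retina is made mainly by Müller glia. The gene spans bases 155747074 to 155756853 of chromosome 1 (plus strand, NCBIM37) and was the most abundant of the 10 genes. Its FPKM was 548, 548 and 494 in *Nrl-/-* retina, against 567, 529 and 540.2 in WT retina. The groups overlapped, and the transcript ranked 11 of all in *Nrl-/-* and 14 in WT retina. The log2 fold change was -0.04 (95% interval -0.19 to 0.10, adjusted p = 0.643 from limma), and its sign turned with quantile normalization (0.15) and without *Nrl-/-* replicate 3 (0.01), with no call in either.

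*Aqp4* encodes the water channel of glial endfeet. The gene spans bases 15547903 to 15562193 of chromosome 18 (minus strand). Its FPKM was 20.7, 18.8 and 20.3 in *Nrl-/-* retina, against 19.5, 20.7 and 20.9 in WT retina. These ranges overlapped, with a log2 fold change of -0.03 (95% interval -0.16 to 0.10, adjusted p = 0.725 from limma), and the sign turned without *Nrl-/-* replicate 2 (0.01).

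*Car2* and *Car14* encode carbonic anhydrases, which interconvert carbon dioxide and bicarbonate, the first in the cytosol and the other at the cell surface. They lie on chromosome 3, *Car2* on the plus strand from 14886426 to 14900769 and *Car14* on the minus strand from 95701691 to 95708614. The FPKM of *Car2* was 171, 171 and 157 in *Nrl-/-* retina, against 151, 150.2 and 159.9 in WT retina. WT replicate 3 was above *Nrl-/-* replicate 3, and *Car2* was not called (log2 fold change 0.11, 95% interval -0.02 to 0.25, adjusted p = 0.170 from limma). Its sign turned with quantile normalization (-0.04). *Car14* had an FPKM of 31.0, 29.9 and 30.3 in *Nrl-/-* retina, against 23.8, 25.2 and 28.7 in WT retina. Every *Nrl-/-* library was above every WT library, and *Car14* was higher by 0.23 (SE 0.07, adjusted p = 0.0311 from limma). That call was lost without each of 5 libraries in turn, with adjusted p of 0.108, 0.0764 and 0.0784 without *Nrl-/-* replicates 1, 2 and 3 and 0.069 and 0.0873 without WT replicates 1 and 2. *Car14* shares 445 exonic bases with *Aph1a* on the other strand, and the kit does not mark strand. *Aph1a* had a mean FPKM of 1.66 in *Nrl-/-* and 1.54 in WT retina.

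*Apoe* and *Clu* encode secreted carriers, the first a lipoprotein that moves cholesterol and the other the extracellular chaperone clusterin. *Apoe* spans bases 20281458 to 20284515 of chromosome 7 (minus strand), and *Clu* bases 66587320 to 66600385 of chromosome 14 (plus strand). The FPKM of *Apoe* was 211, 203 and 183 in *Nrl-/-* retina, against 150.2, 122 and 135 in WT retina. The lowest *Nrl-/-* library was above the highest WT library. The mean was 199 ± 14.8 in *Nrl-/-* and 136 ± 14.2 in WT retina (SD, n = 3), a log2 fold change of 0.55 (SE 0.09, adjusted p = 0.00107 from limma). *Clu* had an FPKM of 194, 179 and 197 in *Nrl-/-* retina, against 150.2, 155 and 139 in WT retina. These groups did not overlap either, and *Clu* was higher by 0.36 (SE 0.06, adjusted p = 0.00245 from limma).

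*Abca8a* encodes a member of the ABC subfamily A, which moves lipids across membranes. The gene spans bases 109886948 to 109957292 of chromosome 11 (minus strand) and had the largest change of the 10 genes. Its FPKM was 39.8, 38.4 and 39.5 in *Nrl-/-* retina, against 22.3, 24.99 and 26.3 in WT retina. The groups stood well apart, with a mean of 39.2 ± 0.734 in *Nrl-/-* and 24.5 ± 2.05 in WT retina (SD, n = 3). The log2 fold change was 0.66 (SE 0.07, adjusted p = 7.07e-05 from limma). Of the 70-base windows of its longest coding transcript 0.829% occur also in the paralog *Abca8b*, whose mean FPKM was 4.87 in *Nrl-/-* and 4.72 in WT retina. The genes with the most similar pattern over the 6 libraries, by the distance of mean-centred log2(FPKM + 1), were *Bmp1* (0.0478), *Luc7l3* (0.0579) and *C1ql3* (0.0579).

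*Sparc* encodes osteonectin, a secreted matrix protein that binds collagen, and *Timp3* an inhibitor of metalloproteases that is held in the matrix. *Sparc* spans bases 55208002 to 55233582 of chromosome 11 (minus strand), and *Timp3* bases 85763117 to 85812251 of chromosome 10 (plus strand), within *Syn3*, which runs the other way. *Sparc* had an FPKM of 148, 148 and 132 in *Nrl-/-* retina, against 107, 107 and 129 in WT retina. The groups were apart by a small margin, between *Nrl-/-* replicate 3 and WT replicate 3, and *Sparc* was higher by 0.32 (SE 0.08, adjusted p = 0.0164 from limma). The adjusted p was 0.0664 and 0.065 without *Nrl-/-* replicates 1 and 2, and 0.0522 and 0.0618 without WT replicates 1 and 2. *Timp3* had an FPKM of 19.3, 22.8 and 15.9 in *Nrl-/-* retina, against 14.1, 17.9 and 14.7 in WT retina. These groups overlapped, and the log2 fold change of 0.29 (95% interval 0.00 to 0.57) was not called (adjusted p = 0.106 from limma) but passed without *Nrl-/-* replicate 3 (adjusted p = 0.029). *Timp3* shares 1733 exonic bases with *Syn3*, which had a mean FPKM of 4.54 in *Nrl-/-* and 4.37 in WT retina.

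*Cd9* encodes a tetraspanin, a membrane protein that organises adhesion molecules and is common on exosomes. The gene spans bases 125410284 to 125444809 of chromosome 6 (minus strand). Its FPKM was 20.3, 19.7 and 26.1 in *Nrl-/-* retina, against 15.2, 17.0 and 18.2 in WT retina. Replicate 3 was the highest in each genotype, and the groups did not overlap. *Cd9* was higher by 0.36 (SE 0.11, adjusted p = 0.0259 from limma). Without *Nrl-/-* replicate 3 the adjusted p was 0.0638, and without WT replicates 1 and 2 it was 0.083 and 0.0614.

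**Figure D2:**
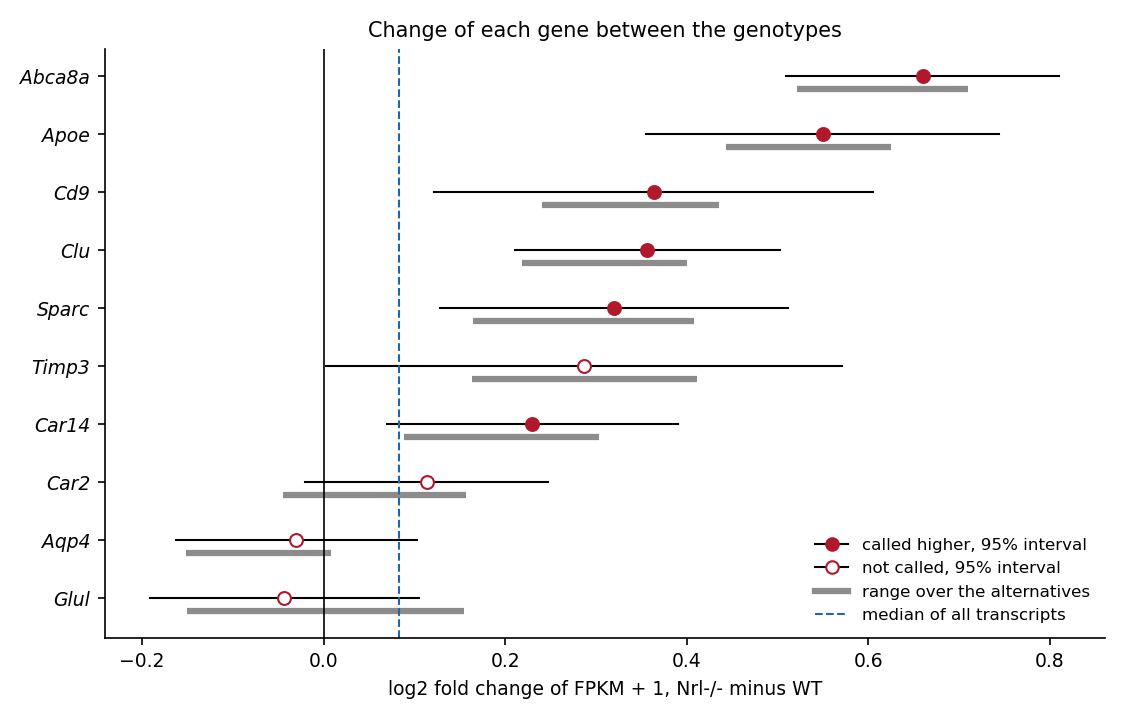
Log2 fold change of FPKM + 1 of each gene, *Nrl-/-* minus WT (horizontal axis), with its 95% interval, the range over the 19 alternatives (grey) and the median of all transcripts (dashed, 0.08). *Abca8a* (0.66) and *Apoe* (0.55) lie farthest to the right, and the points of *Aqp4* (-0.03) and *Glul* (-0.04) lie left of 0.

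The other 9 genes were also set against *Glul* in the same library, a comparison chosen after the values were seen and therefore given without a test. *Apoe* was at 37.0% to 38.6% of the FPKM of *Glul* in *Nrl-/-* libraries, against 23.0% to 26.5% in WT libraries. *Clu* was at 32.6% to 39.9% of *Glul* in *Nrl-/-*, against 25.7% to 29.4% in WT. *Sparc* was at 26.6% to 27.0% of it in *Nrl-/-*, against 18.8% to 23.8% in WT. None of these ranges overlapped, nor did those of *Car2*, *Car14*, *Abca8a* and *Cd9*, while those of *Aqp4* and *Timp3* did. On this scale every *Nrl-/-* library was above every WT library for 38.1% of all transcripts, and *Car2* stood apart on it although its FPKM overlapped. *Abca8a* was at 7.01% to 8.004% of *Glul* in *Nrl-/-*, against 3.93% to 4.87% in WT. *Glul* itself made up 38.2% to 39.7% of the summed FPKM of the 10 genes in *Nrl-/-* libraries and 44.6% to 46.5% in WT libraries. That sum was 1293 to 1404 in *Nrl-/-* and 1170 to 1220 in WT libraries, and without *Glul* it was 799.8 to 856 in *Nrl-/-* and 641 to 672 in WT libraries.

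**Figure D3:**
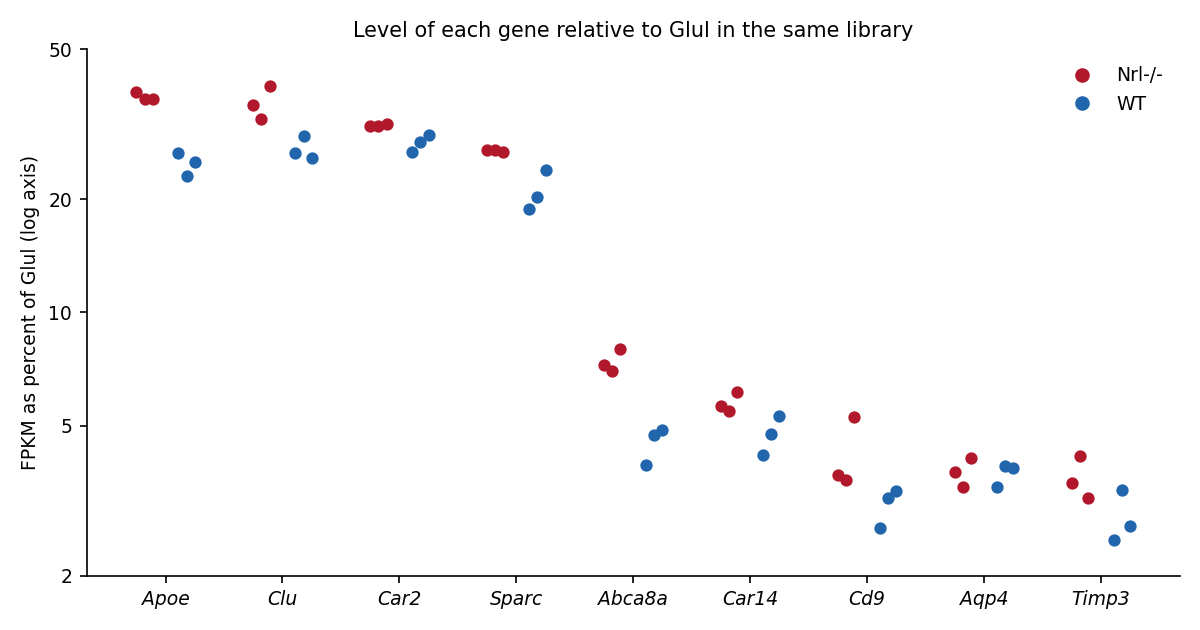
FPKM of each of the other 9 genes as a percentage of *Glul* in the same library (log axis), for the 3 *Nrl-/-* and 3 WT libraries. *Apoe* lies at 37.0% to 38.6% in *Nrl-/-* and 23.0% to 26.5% in WT libraries, and the points of *Aqp4* and *Timp3* overlap between genotypes.

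Other genes known in Müller glia moved in both directions. Of the 24, 8 were higher, 2 were lower and 14 were not called, with a median log2 fold change of 0.13. The lists were chosen with earlier results of these data known. For this list and those that follow, the shares over all transcripts as deposited were 26.7% higher and 10.1% lower (1522). The other fits had other shares of the 15142 transcripts. The 4 scalings called 16.2% to 16.9% higher and 2214 to 2275 transcripts lower. The ordinary linear model called 19.4% higher and 1146 lower. Leaving out 1 library gave 18.4% to 27.6% higher and 1122 to 1578 lower. *Hes5* (1.05), a target of Notch signaling, had an FPKM of 4.82 to 6.41 in *Nrl-/-*, against 1.33 to 3.08 in WT retina. *Notch1* (0.95), a receptor of that pathway, had an FPKM of 6.84 to 6.94 in *Nrl-/-*, against 2.56 to 3.59 in WT retina. *Rax*, a homeobox factor also found in photoreceptors, was higher by 0.49, and *Kcnj10*, the potassium channel of glial endfeet, by 0.42. The lower ones, named after their values were seen, were *Gpr37* (-0.23), a receptor of glia, and *Crb1* (-0.21), a polarity protein of the outer limiting membrane. *Sox9* (-0.29, adjusted p = 0.0511 from limma) and *Sox8* (-0.19, adjusted p = 0.102), factors of glial fate, were not called, though every *Nrl-/-* library was below every WT library. *S100a16* (0.28, adjusted p = 0.0652 from limma), *Rlbp1* (0.14, adjusted p = 0.0598) and *Nfib* (0.12, adjusted p = 0.267) were not called either. For them every *Nrl-/-* library was above every WT library. The share of all transcripts with every WT library above was not computed. Under median-of-ratios scaling 6 of the 24 were higher and 5 lower, and under the ordinary linear model 3 were higher and 0 lower. Leaving out 1 library gave 6 to 8 higher, and 0 lower without *Nrl-/-* replicate 2, 2 lower without WT replicate 3 and 1 lower without each of the others.

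Around *Glul*, 9 of 12 listed genes of glutamate and glutamine transport and metabolism were higher and 1 lower, with a median of 0.43. *Slc1a7*, a glutamate transporter of photoreceptors and bipolar cells, had an FPKM of 93.4 to 105 in *Nrl-/-*, against 36.3 to 43.6 in WT retina, a log2 fold change of 1.30. *Slc38a1* (1.11), a glutamine carrier, *Slc1a2* (0.99), a glutamate transporter, and *Got1* (0.51), an aspartate aminotransferase, were also higher. *Got2* (-0.25), the mitochondrial form of that enzyme, was lower and was named after its value was seen. Leaving out each library in turn gave 7 to 8 higher, and each of the 4 scalings and the ordinary linear model gave 7. *Got2* was no longer called without *Nrl-/-* replicate 1, where 0 were lower.

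Around *Aqp4*, 2 of 8 listed water and potassium genes were higher and 2 lower, with a median of 0.05. *Aqp1*, a water channel, had an FPKM of 1.16, 1.45 and 0.932 in *Nrl-/-* retina, against 41.5, 43.9 and 38.9 in WT retina, the largest change among the genes of the pathway lists used here (-4.29). *Kcnj10* (0.42) and *Aqp11* (0.27) were higher. Without *Nrl-/-* replicate 1 or 2, and under median-of-ratios scaling, 1 was higher. Around the carbonic anhydrases, 3 of 16 listed acid-base and lactate genes were higher (*Car5b*, 0.33; *Slc16a7*, 0.28; *Car8*, 0.23) and 1 was lower. The lower one was the lactate carrier *Slc16a1* (-0.58), at an FPKM of 30.3 to 33.5 in *Nrl-/-* and 46.2 to 51.7 in WT retina. Of these 16, 0 were higher without *Nrl-/-* replicate 1, and 1 was higher without *Nrl-/-* replicate 2 or 3, without WT replicate 3, under each of the 4 scalings and under the ordinary linear model. The number lower was 2 without WT replicate 3.

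Around *Apoe* and *Clu*, 2 of 16 listed genes of lipoproteins and cholesterol were higher and 3 lower, with a median of -0.01. *Lrp8* (-0.29), a receptor for apolipoprotein E, was lower, and *Nr1h3* (0.43), a sterol-sensing nuclear receptor, and *Soat1* (0.33), which esterifies cholesterol, were higher. Without WT replicate 3 the counts were 4 higher and 5 lower, without *Nrl-/-* replicate 2 they were 0 higher and 2 lower, without *Nrl-/-* replicate 3 they were 2 higher and 1 lower, and without *Nrl-/-* replicate 1 or WT replicate 2 there was 1 higher. Under the ordinary linear model 0 were higher and 1 lower, and under median-of-ratios scaling 1 higher and 5 lower. Of 7 other ABC subfamily A genes 0 were higher, also at an unadjusted p under 0.05 and under the ordinary linear model, and 1 was lower. That gene, *Abca4*, a retinoid transporter of photoreceptor discs, had an FPKM of 55.9 to 60.4 in *Nrl-/-* and 109 to 143 in WT retina (-1.15). Without WT replicate 2 the number lower was 2, and it was 3 under each of the 4 scalings. *Abca8b*, named outside the rule, had a log2 fold change of 0.05 with an adjusted p of 0.785 from limma.

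Around *Sparc*, *Timp3* and *Cd9*, 2 of 10 other matricellular genes were higher, *Tnc* (0.73), encoding tenascin C, and *Sparcl1* (0.15), and 0 were lower by limma, by its unadjusted p and by the ordinary linear model. The number higher was 1 under each of the 4 scalings and without *Nrl-/-* replicate 1, *Nrl-/-* replicate 2, WT replicate 1 or WT replicate 3. Of 16 other genes of metalloproteases and their inhibitors 3 were higher, *Adamts5* (0.36), *Adamts1* (0.33) and *Efemp1* (0.25), and 0 were lower by limma, 1 at an unadjusted p under 0.05 and 0 by the ordinary linear model. Under each of the 4 scalings 1 was higher and 1 lower, and without WT replicate 3 there were 4 higher and 1 lower. Of 20 other tetraspanins and *Cd9* partners 10 were higher and 1 lower, with a median of 0.20. *Tspan9* (1.10) had an FPKM of 33.8 to 42.7 in *Nrl-/-* and 16.6 to 19.97 in WT retina, and *Cd37* (0.94), *Tspan31* (0.58) and *Cd63* (0.50) were also higher. Each of the 4 scalings gave 8 higher and 1 lower of the 20, and the lower one was lost without any of the *Nrl-/-* replicates or WT replicate 2.

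**Figure D4:**
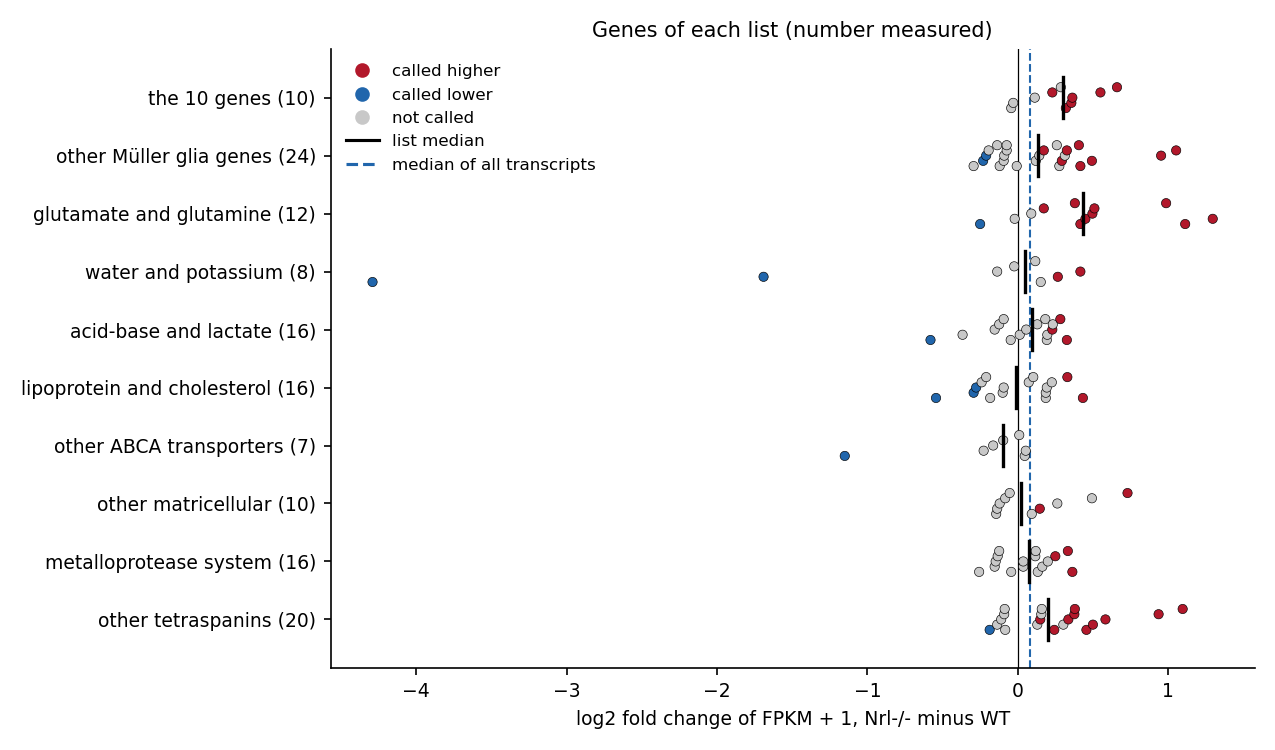
Log2 fold change of FPKM + 1 of the genes of each list, *Nrl-/-* minus WT (horizontal axis), coloured by their call, with the median of each list (black) and of all transcripts (dashed). *Aqp1* (-4.29) lies farthest to the left, and the glutamate list has the highest median of the lists shown (0.43).

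Markers of other cells that could carry these transcripts were read in the same libraries. Pigment epithelium markers (7 of 10 listed) had a summed FPKM of 32.8 to 59.8 in *Nrl-/-* and 11.6 to 80.8 in WT retina, with WT replicate 2 highest and WT replicate 3 lowest. *Ttr*, the transthyretin gene, was at 19.97, 16.3 and 11.9 in *Nrl-/-*, against 18.3, 36.3 and 4.94 in WT retina. None of the 7 was called (0 higher and 0 lower by limma and by the ordinary linear model, 1 higher at an unadjusted p under 0.05), and *Dct* ranged from 6.62 to 18.03 in *Nrl-/-* and 1.83 to 8.19 in WT. *Tyrp1*, a melanin enzyme named after its value was seen, was at 2.12, 6.01 and 1.85 in *Nrl-/-*, against 1.11, 1.77 and 0.464 in WT retina (log2 fold change 0.95, adjusted p = 0.0521 from limma). Of the 7 markers 1 was higher with either other pseudocount, with either FPKM minimum, with FPKM summed per symbol, and without *Nrl-/-* replicate 3 or WT replicate 2. *Best1*, *Oca2* and *Slc45a2* were not listed. Astrocyte markers (5 of 6 listed) summed to 21.3 to 33.0 in *Nrl-/-* and 16.9 to 32.8 in WT, and 0 were called by limma, at an unadjusted p under 0.05 or by the ordinary linear model, with 1 lower without WT replicate 1. *Pax2* was not listed. *Gfap* was at 11.0, 11.4 and 22.9 in *Nrl-/-*, against 7.28, 9.63 and 20.7 in WT retina, and like *Cd9* it was highest in replicate 3 of each genotype. Vessel markers (11 of 12 listed) summed to 67.1 to 78.6 in *Nrl-/-* and 65.3 to 71.9 in WT, with 3 higher, among them *Rgs5* (0.59), and 2 lower, among them *Kdr* (-0.44). Without any of the *Nrl-/-* replicates, WT replicate 1 or WT replicate 3, 1 of them was lower.

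Microglia markers summed to 17.0 to 19.4 in *Nrl-/-* and 13.3 to 14.8 in WT retina, with 4 of 8 listed markers higher. These were *C1qa* (0.51), *C1qb* (0.44), *C1qc* (0.34) and *Cd68* (0.35), while the other 4, among them *Cx3cr1* and *P2ry12*, were not called. *Aif1* and *Itgam* were not listed. The number higher was 2 without *Nrl-/-* replicate 1, *Nrl-/-* replicate 3 or WT replicate 2 and under the ordinary linear model. *Apoe*, *Sparc* and *Cd9* are also made by microglia or vessels, and the part of these cells in their change was not tested. Of 10 lens markers 1 was listed, *Cryaa*, at an FPKM of at most 0.149 in *Nrl-/-* and of at least 0.659 in WT retina.

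A second workflow of the same study gave 1 pooled FPKM per genotype from TopHat alignments, which allows no test. The 10 genes had 31 transcripts there, and the *Nrl-/-* value was above the WT value for 26 and below it for 5. The share over all TopHat transcripts was not computed. Transcripts of 1 gene are not separate evidence, with 7 from *Abca8a* and 6 from *Clu*, and the reads are those of the BWA values. The highest transcript of 9 of the 10 genes was higher and that of *Glul* lower, at 473.3 in *Nrl-/-* and 496.7 in WT retina. *Abca8a* had 40.02 in *Nrl-/-* and 26.8 in WT retina, *Apoe* 286 in *Nrl-/-* and 196 in WT, and *Clu* 230 in *Nrl-/-* and 181 in WT. *Cd9* had 28.6 in *Nrl-/-* and 22.9 in WT, *Sparc* 139 in *Nrl-/-* and 107 in WT, *Timp3* 18.4 in *Nrl-/-* and 15.4 in WT, *Car14* 30.6 in *Nrl-/-* and 27.2 in WT, and *Car2* 202 in *Nrl-/-* and 188 in WT. *Aqp4* was at 15.7 in *Nrl-/-* and 14.5 in WT for its highest transcript, while its 3 transcripts summed to 20.5 in *Nrl-/-* and 22.7 in WT.

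**Figure D5:**
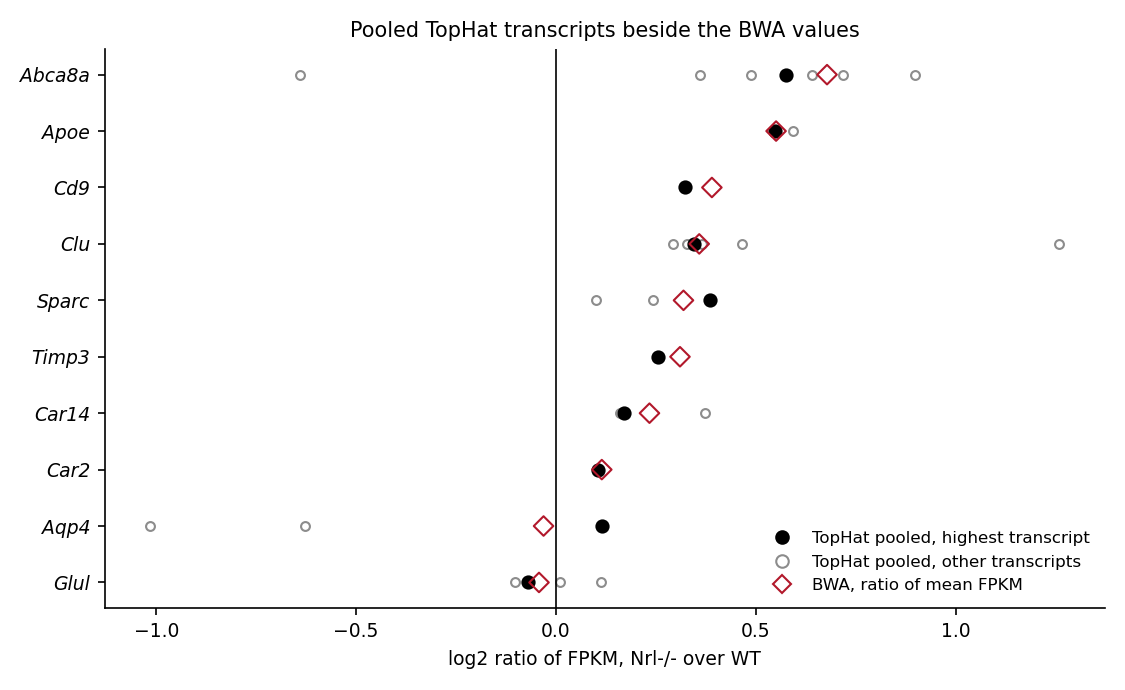
Log2 ratio of FPKM, *Nrl-/-* over WT (horizontal axis), for each pooled TopHat transcript of the 10 genes (filled for the highest, open for the others) and for the BWA means (diamonds). Among the BWA means and the highest TopHat transcripts *Abca8a* and *Apoe* lie farthest to the right, another *Clu* transcript lies beyond them (1.26), and the highest transcript of *Aqp4* lies right of 0 while its 2 others lie left of it.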

How the data were processed

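Whole retinas of 3 *Nrl-/-* and 3 WT mice were sequenced by the study as 70-base single reads from TruSeq libraries. The authors aligned the reads to mm9 with BWA and estimated transcript FPKM with Partek Genomics Suite. The deposited log2 values are log2(FPKM + 1), rounded to 2 decimals. The authors had dropped transcripts below an FPKM of 1 in all 6 libraries. FPKM was recovered as the power of 2 minus 1. The pooled FPKM per genotype were deposited by the authors from TopHat and Cufflinks. Columns holding the authors' own fold changes and p-values were not used. The tables hold no counts, so each library's depth is not known from them.

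The log2 values were fitted with limma 3.58.1 (R 4.3.3) with genotype alone, a trended prior and Benjamini-Hochberg adjustment over 15142 mRNA transcripts. A gene was taken as its transcript with the highest mean FPKM. With 3 against 3 the smallest two-sided exact permutation p is 0.1, so none was run per gene. Replicates are separate samples per the labels. On simulated data of the same size 14942 of 15142 transcripts were unchanged, and the fit called 5 of these. It called 19 of 50 transcripts changed by 1.25-fold, 36 of 50 by 1.5-fold and 49 of 50 by 2-fold. The folds were of FPKM + 1. Changed transcripts were drawn only from those with a mean log2(FPKM + 1) of at least 3, so lower ones were not covered. Of the real transcripts 26.7% were called higher and 10.1% lower, a far larger share. How often the fit misses or wrongly calls transcripts at that share was not tested. Members and lists were chosen with earlier results of these data known. Named were all members, up to 4 called genes with the largest change per pathway list, up to 3 of the highest markers per marker list, *Nrl* and *Xist* as checks of the labels, and the 3 genes nearest in pattern to *Abca8a*. *Got2*, *Gpr37*, *Crb1*, *Sox8*, *Sox9*, *S100a16*, *Rlbp1*, *Nfib*, *Tyrp1*, *Abca8b*, *Aph1a*, *Syn3*, *Cd68*, *Cx3cr1*, *P2ry12*, *Aif1*, *Itgam*, *Best1*, *Oca2*, *Slc45a2* and *Pax2* were named outside that rule. The 19 alternatives were pseudocounts of 0.1 and 0.5, FPKM minimums of 1 in at least 3 libraries and of 5, 3 other treatments of the spread, 4 scalings, a replicate block, each library left out and FPKM summed per symbol. Positions came from GENCODE vM1 on NCBIM37, which is mm9, and promoter sequences from RefSeq. Python 3.11.15, pandas 2.3.3, numpy 2.4.6 and matplotlib 3.10.9 were used. Results of some other genes are left out.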

Additional observations from a re-analysis of the deposited data

How the results depend on the processing

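*Abca8a*, *Apoe* and *Clu* were called higher in all 19 alternatives, with adjusted p from limma (or, in 1 alternative, an ordinary linear model) of 3.1e-05 to 0.00797, 0.000429 to 0.0322 and 0.00172 to 0.0294. The call was lost for *Car14* in 10 alternatives, for *Sparc* in 9 and for *Cd9* in 8, and the cause was not tested. *Glul*, *Aqp4* and *Car2* were never called. The number of members higher was 3 with median-of-ratios, upper-quartile and quantile scaling, with the scaling without the 25 highest transcripts, and under the ordinary linear model, against 6, and it ranged from 3 to 6 over the fits that left out 1 library. It was 7 with the replicate block, which added *Timp3*, and 0 were lower in each of the 19. The block changed no other call of a member, and under it 2 pigment epithelium markers and 1 astrocyte marker were higher, against 0 of each. Residuals of same-numbered libraries had correlations of 0.0286, 0.0237 and 0.124. Only the replicates numbered 3 were most like each other. *Nrl-/-* replicate 1 was most like WT replicate 2 (0.0342) and *Nrl-/-* replicate 2 most like WT replicate 1 (0.0729). A shared number was read as a name only. The median log2 fold change of the members was 0.20 with median-of-ratios and upper-quartile scaling, 0.16 with quantile normalization and 0.21 without the 25 highest transcripts, and from 0.25 to 0.33 over the fits that left out 1 library. The scalings moved the median of all transcripts by -0.08 to -0.09, and the counts of all calls were 2463 higher and 2275 lower with median-of-ratios scaling, against 4047 and 1522 as deposited. The pooled TopHat log2 ratio of *Aqp4* turned to -0.15 when its transcripts were summed. Adjusted p of the ordinary linear model was 0.109 for *Car14*, 0.101 for *Sparc* and 0.143 for *Cd9*. FPKM recovered from 2 decimals of log2, without read counts per transcript, limits how small a change can be read.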
